A study of Mus musculus with 14 samples.

Results

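Genes encoding heat shock proteins of the cytosol and the mitochondria were followed in hippocampal RNA of mice labelled LPAR2-/- and of wild-type (WT) mice. A set of 10 genes was chosen by name (Hspa1a, Hspa1b, Hspa8, Hsph1, Dnajb1, Hsp90aa1, Hsp90ab1, Hspb1, Hspd1 and Hspe1). The choice was made with earlier results of these data known. All 10 were present among the 24421 genes of the count table. RNA had been sequenced after depletion of ribosomal RNA from 7 mice labelled LPAR2-/- and 7 WT mice, with 1 library per mouse. LPAR2 is a receptor for lysophosphatidic acid, a lipid that acts as an extracellular messenger. According to the labels all mice were naive males of strain 129.C57Bl6 aged 10 to 12 weeks. The description of the data set calls them middle-aged to aged, and the study gives a wider age range for its experiments. Their age is therefore uncertain. The tissue is the hippocampus on the labels and in the methods of the study, whereas its results name the dentate gyrus. The knockout allele lacks part of exon 2 of Lpar2. The homozygous knockout mice and their controls came from separate colonies, the latter of a mixed C57BL/6 and 129/SvJ background, so that genotype and colony cannot be told apart.

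Heat shock proteins are chaperones, which hold unfolded proteins and help them to fold. In the cytosol HSP70 proteins bind exposed hydrophobic stretches, J-domain proteins (HSP40) deliver the clients and stimulate ATP hydrolysis, HSP110 proteins exchange the nucleotide, and HSP90 proteins take over late folding intermediates such as kinases and steroid receptors. In mitochondria the HSP60 chaperonin and its HSP10 lid enclose imported proteins. Many of these genes are induced by heat shock factor 1 (HSF1) through heat shock elements, which are alternating GAA and TTC units. Chaperones of the endoplasmic reticulum (ER) such as Hspa5 (BiP) are induced by the unfolded protein response through a different element, the ER stress response element (ERSE). In neurons HSP70 and its partners also uncoat endocytic vesicles and hold aggregation-prone proteins in solution.

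These elements were looked up in the promoters, because the comparison below sets the heat shock genes against the ER chaperone Hspa5. Promoter sequences were those of RefSeq (GRCm38.p6), from 250 bases before to 50 bases after a start site. Entries existed for 7 of the 10 heat shock genes, and none for Hspa8, Hsp90aa1 and Hsp90ab1. The capitals in the following stretches mark the matches, spacer bases included, and each sequence is written 5′ to 3′ on the strand of its gene:

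Hspe1 (chr1:55088038-55088108, plus strand): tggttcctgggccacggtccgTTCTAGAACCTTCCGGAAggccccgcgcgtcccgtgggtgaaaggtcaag

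Hspa1a (chr17:34972217-34972286, minus strand): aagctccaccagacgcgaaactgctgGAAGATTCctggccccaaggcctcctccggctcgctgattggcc

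Hspa1b (chr17:34959299-34959368, minus strand): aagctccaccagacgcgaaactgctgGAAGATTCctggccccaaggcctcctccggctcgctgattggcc

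Hspb1 (chr5:135887789-135887858, plus strand): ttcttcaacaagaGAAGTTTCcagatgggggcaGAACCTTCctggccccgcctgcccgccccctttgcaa

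Hspa5 (chr2:34772000-34772069, plus strand): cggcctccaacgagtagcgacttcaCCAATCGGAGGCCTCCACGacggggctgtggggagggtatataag

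A pair of units (GAANNTTC or TTCNNGAA, each the same on both strands) was found in 7 of the 10 promoter entries of these 7 genes (6 of the genes), compared with 15.1% of all 32851 entries of this length. Dnajb1, Hsph1 and Hspd1 had 2 entries each, which overlap for Hsph1. A run of 3 units (GAANNTTCNNGAA, which reads TTCNNGAANNTTC on the other strand and contains the pair) was found in 4 of the 10 entries, both of Hsph1, 1 of Hspd1 and that of Hspe1, compared with 0.603% of all entries. Neither motif was found in the Dnajb1 entries or in the second Hspd1 entry, whose start site is at 55088243. Hspd1 and Hspe1 lie head to head, with start sites at 55087932 on the minus strand and 55088148 on the plus strand of chromosome 1, and the run of units printed for Hspe1 lies between these 2 start sites, at bases -89 to -72 of Hspe1 and -144 to -127 of Hspd1. The 70 bases printed for Hspa1a and Hspa1b were identical, and 247 of the 250 bases before the start site (98.8%) were the same in this gene pair. The ERSE (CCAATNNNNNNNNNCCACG, both strands) was found in 0 of the 10 entries of the heat shock genes. It was found in 7 of the 15 entries of ER chaperones (15 genes with 1 entry each), Hspa5 included, compared with 0.119% of all entries. These matches describe the sequence only, and binding of a factor was not measured.

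Before the results, the targeted gene was inspected as a check of the labels. Lpar2 had 27 to 66 counts in the WT libraries and 144 to 234 counts in the libraries labelled LPAR2-/-. Its level was thus higher in the latter (log2 fold change 2.01 ± 0.157 (SE), 7 mice per group, adjusted p = 8.22e-07 in edgeR's quasi-likelihood test), against the direction of a knockout. Counts per gene do not separate the deleted part from the rest of the transcript, so that they can neither show nor refute the deletion, and the libraries are named here by their labels. Between 15434620 and 23258949 reads per library were counted on genes. The library of LPAR2-/- mouse 3 stood apart in composition, with a sum of 3635 CPM over 5 oligodendrocyte markers, compared with 880 to 1889 CPM in the other 13 libraries. All levels given below are CPM (counts relative to the size of the library, after TMM scaling), and differences are mice labelled LPAR2-/- minus WT.

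All 10 heat shock genes were measured, and all 10 had a negative log2 fold change. Of the 14897 genes tested, 48.9% had one. The threshold of an adjusted p under 0.05 was passed by 5 of the 10 (Hspa8, Hsph1, Dnajb1, Hspd1 and Hspe1), all of them lower in mice labelled LPAR2-/-. Among all genes tested 3.46% were called lower and 3.32% higher, that is 515 and 494 genes. Because the 10 were chosen with earlier results of these data known, these shares do not test them as a set. With upper-quartile scaling these were 377 lower and 616 higher, with 4 of the 10 heat shock genes lower. With single mice left out, the numbers over all genes ranged from 292 to 725 lower and from 275 to 660 higher, lowest without WT mouse 2. None of the 10 was called higher by edgeR or DESeq2, and at an unadjusted p under 0.05 6 of the 10 were lower and 0 higher. Of all genes tested, 11.1% were lower and 11.3% higher at that unadjusted p, and in DESeq2, which called the same number of 5 heat shock genes lower, 4.45% were called lower and 4.15% higher. The median log2 fold change of the 10 genes was -0.26, ranging from -0.38 to -0.026, compared with a median of 0.00292 over all genes tested. With single mice left out, 3 to 6 of the 10 were called lower, namely 3 without LPAR2-/- mouse 4 or 5 or WT mouse 2, 4 or 5, and 6 (Hsp90aa1 in addition) without LPAR2-/- mouse 3, whose library was rich in oligodendrocyte markers. In no case were the ranges of the genotypes separated, which occurred in 1.77% of all genes tested.

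**Figure D1:**
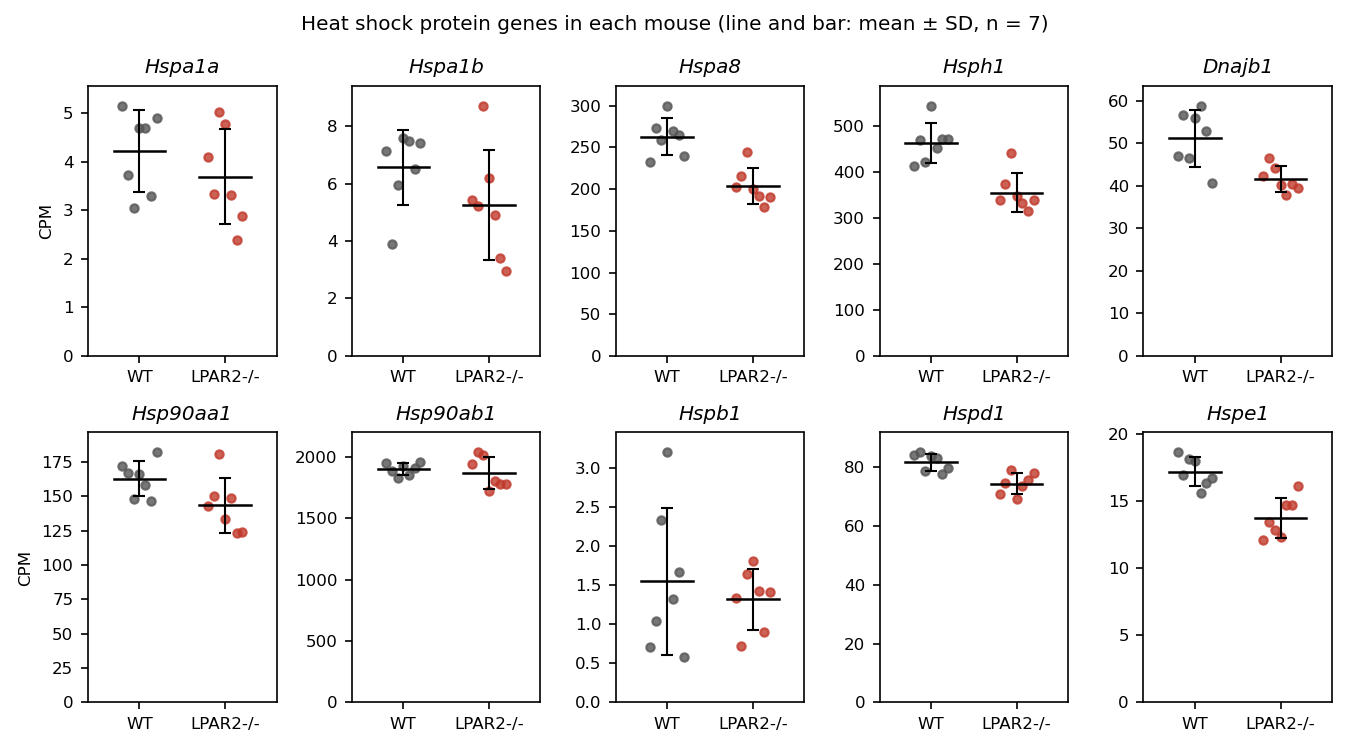
Level (CPM, linear axis from 0) of the 10 heat shock genes in each of 7 WT mice (grey) and 7 mice labelled LPAR2-/- (red), with the mean (line) and SD (bar). For Hspa8, Hsph1, Dnajb1, Hspd1 and Hspe1 most red points lie below most grey points. The ranges overlap over most of their width for Hspa1a and Hspa1b, the red points reach beyond the grey ones on both sides for Hsp90ab1, and the grey points do so for Hspb1.

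Hspa8 encodes HSC70, the constitutive HSP70 of the cytosol, which drives uncoating of clathrin-coated vesicles and chaperone-mediated autophagy. It lies at chr9:40801273-40805199 on the plus strand (mm10). Its level in WT mice was 233 CPM at the lowest, 265 at the median and 299.7 at the highest. The corresponding levels were 179, 200.3 and 245 CPM in mice labelled LPAR2-/-. Of the 7 mice labelled LPAR2-/-, 6 were below every WT mouse, and only mouse 3 (245 CPM) reached into the WT range, above WT mice 1 and 7. The means were 263 ± 22.2 (SD, n = 7) and 204 ± 21.6 CPM (n = 7). Hspa8 was therefore at 77.5% of its WT mean (log2 fold change -0.37 ± 0.0668 (SE), adjusted p = 0.00410 by edgeR), and the call was kept when any one of the 14 mice was left out.

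Hsph1 (chr5:149616845-149636315, minus strand) encodes HSP110, the nucleotide exchange factor of cytosolic HSP70. WT mice had 413 CPM at the lowest, 469 at the median and 544 at the highest. Mice labelled LPAR2-/- had 315, 339 and 442 CPM. As with Hspa8, 6 of 7 mice labelled LPAR2-/- were below every WT mouse and mouse 3 alone was above WT mice 1 and 3. The mean fell from 463 ± 42.9 to 355 ± 42.2 CPM (SD, n = 7 each), that is to 76.7% of WT. This was the largest difference in size among the 10 genes (log2 fold change -0.38 ± 0.0724, adjusted p = 0.00544 by edgeR), although the difference from Hspa8 is smaller than its SE. It also remained past the threshold with each mouse left out.

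The inducible HSP70 genes Hspa1a (chr17:34969359-34972156) and Hspa1b (chr17:34956429-34959238), neighbours on the minus strand that encode nearly the same protein, were expressed at a low level. Hspa1a had 3.05 CPM at the lowest, 4.69 at the median and 5.15 at the highest in WT mice, compared with 2.39, 3.33 and 5.02 in mice labelled LPAR2-/-. Hspa1b had 3.91, 7.14 and 7.60 CPM in WT mice, compared with 2.94, 5.22 and 8.71 in mice labelled LPAR2-/-. The groups overlapped over most of their range. For both genes mouse 3 was the highest of the mice labelled LPAR2-/-, and mice 6 and 7 were the lowest 2. Neither gene passed the threshold. The log2 fold change was -0.18 ± 0.169 (adjusted p = 0.566) for Hspa1a and -0.30 ± 0.206 (adjusted p = 0.411) for Hspa1b in edgeR, and -0.26 (adjusted p = 0.428) for the sum of their counts. With each mouse left out, the value of Hspa1a ranged from -0.27 (without LPAR2-/- mouse 3) to -0.10 (without LPAR2-/- mouse 6) and that of Hspa1b from -0.47 (without LPAR2-/- mouse 3) to -0.21 (without LPAR2-/- mouse 7), with 0 of 14 fits past the threshold for either gene. The SD of Hspa1b reached 36.2% of the mean in mice labelled LPAR2-/-, where counting alone would give 9.24% at the mean count of all 14 libraries.

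Dnajb1 encodes the stress-inducible HSP40 that delivers clients to HSP70. It lies at chr8:83608175-83612653 on the plus strand. Its level was 40.5 CPM at the lowest, 52.8 at the median and 58.8 at the highest in WT mice, and 37.7, 40.4 and 46.6 CPM in mice labelled LPAR2-/-. Of the 7 WT mice, 5 were above every mouse labelled LPAR2-/-, whereas WT mouse 3 (46.4 CPM) and WT mouse 7 (40.5 CPM) lay within their range. The means were 51.2 ± 6.66 and 41.6 ± 3.02 CPM (SD, n = 7 each), that is 81.2% of WT (log2 fold change -0.30 ± 0.0751, adjusted p = 0.0256 by edgeR). The adjusted p rose above 0.05, to between 0.0504 and 0.0612, without LPAR2-/- mouse 4 or 5 or without WT mouse 2, 4, 5 or 6. Dnajb1 lies 13.8 Mb from Lpar2, and of the 108 genes tested at 10 to 20 Mb from Lpar2 on chromosome 8, 23.1% were called (15 of them lower). Whether Dnajb1 differs because of this position was not tested.

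Neither of the HSP90 genes passed the threshold. Hsp90ab1 (chr17:45567778-45573261, minus strand), the constitutive HSP90 beta, had 1829 CPM at the lowest, 1907 at the median and 1959.6 at the highest in WT mice. It had 1718, 1801 and 2035 CPM in mice labelled LPAR2-/-. The highest 2 of all 14 mice (mice 2 and 3) and the lowest 4 (mice 4 to 7) were all labelled LPAR2-/-, and the means of 1901 ± 49.3 and 1866 ± 128 CPM (SD, n = 7 each) were not distinguished (log2 fold change -0.026 ± 0.0442, adjusted p = 0.777 by edgeR). Hsp90aa1 (chr12:110691036-110696395, minus strand), the inducible HSP90 alpha, had 147, 166 and 182 CPM (lowest, median, highest) in WT mice, compared with 123, 143 and 181 CPM in mice labelled LPAR2-/-. Below every WT mouse were 4 mice labelled LPAR2-/-, and mouse 3 was almost as high as the highest WT mouse. The difference from 163 ± 12.7 to 143 ± 19.9 CPM (SD, n = 7 each) did not pass the threshold (log2 fold change -0.18 ± 0.0769, adjusted p = 0.170 by edgeR), but it did without LPAR2-/- mouse 3 (-0.25, adjusted p = 0.0228).

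Hspb1 (chr5:135887919-135889563, plus strand) encodes HSP25, a small heat shock protein that holds unfolded proteins without ATP. It had the fewest counts of the 10 genes, with 10 to 64 counts per WT library and 14 to 42 counts per library labelled LPAR2-/-. Levels in WT mice ran from 0.583 through a median of 1.32 to 3.20 CPM, and those in mice labelled LPAR2-/- from 0.717 through 1.41 to 1.81 CPM. The WT mice were the more spread of the groups, with mice 3 and 4 above the highest and mice 1 and 7 below the lowest mouse labelled LPAR2-/-. Their SD was 60.6% of the mean, where counting alone would give 18.8% at the mean count of all 14 libraries. No difference was detected beyond the spread between mice (log2 fold change -0.22 ± 0.333, adjusted p = 0.743 by edgeR), and the sign turned without WT mouse 4 (0.061).

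The mitochondrial pair Hspd1 (HSP60, chr1:55077834-55087932, minus strand) and Hspe1 (HSP10, chr1:55088148-55091317, plus strand) has been described above with its shared stretch of heat shock units. Hspd1 had 77.5 CPM at the lowest, 83.0 at the median and 85.0 at the highest in WT mice, and 69.2, 74.7 and 79.1 CPM in mice labelled LPAR2-/-. Hspe1 had 15.6, 16.9 and 18.6 CPM in WT mice, and 12.1, 13.5 and 16.1 CPM in mice labelled LPAR2-/-. For Hspe1 a single mouse labelled LPAR2-/- (mouse 7) was above a single WT mouse (mouse 5), and the remaining 6 of each genotype were separated. For Hspd1, 5 mice of each genotype lay outside the range of the other genotype.

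Hspd1 and Hspe1 both fell. The mean of Hspe1 went from 17.2 ± 1.09 to 13.7 ± 1.48 CPM (SD, n = 7 each), 79.8% of WT (log2 fold change -0.33 ± 0.0686, adjusted p = 0.0111 by edgeR). That of Hspd1 went from 81.7 ± 2.97 to 74.4 ± 3.59 CPM, 91.1% of WT (-0.13 ± 0.0373, adjusted p = 0.0398 by edgeR). Hspd1 combined the smallest difference of the 5 called genes with the smallest spread of these 5 between WT mice, an SD of 3.64% of the mean. The Hspe1 call was kept with each mouse left out. Hspd1 passed in 5 of the 14 fits that leave out a mouse (adjusted p up to 0.0897), and neither with upper-quartile scaling (0.0628) nor without a filter (0.0593). With the mouse number as a block in edgeR, neither Hspe1 (adjusted p = 0.0511) nor Hspd1 (adjusted p = 0.120) passed. The difference between these 2 fold changes was not tested.

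**Figure D2:**
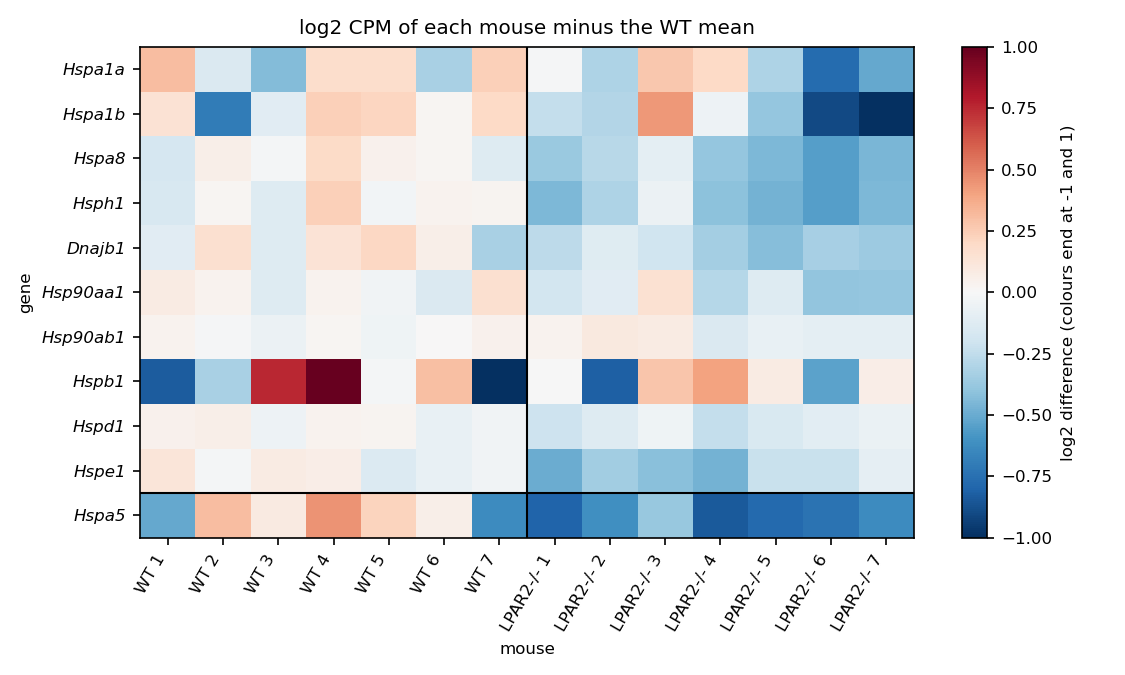
log2 CPM of each mouse minus the WT mean (colour; rows are genes, columns are mice, WT left and LPAR2-/- right of the line), for the 10 heat shock genes and for the ER chaperone Hspa5 in the lowest row. LPAR2-/- mouse 3 is the highest of its group for 6 of the 10 genes, and WT mice 1 and 7 have low Hspa5 but Hspe1 and Hspd1 levels above those of every mouse labelled LPAR2-/-.

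The heat map of single mice shows where the mice within a genotype differed. LPAR2-/- mouse 3, the library with the high oligodendrocyte markers, had the highest level of its group for 6 of the 10 genes (Hspa1a, Hspa1b, Hspa8, Hsph1, Hsp90aa1 and Hspd1), and LPAR2-/- mouse 6 the lowest for 4 (Hspa1a, Hspa8, Hsph1 and Hsp90aa1). Among WT mice, mouse 4 was the highest for 4 genes (Hspa1b, Hspa8, Hsph1 and Hspb1), and no mouse was the lowest for more than 2. Beyond single mice, the order of the genes by level per exon length was the same in both genotypes. In WT mice the mean RPKM (CPM per kilobase of exon) was 758 for Hsp90ab1, 133 for Hsph1, 124.8 for Hspa8, 57.2 for Hsp90aa1, 35.0 for Hspd1, 22.4 for Hspe1 and 15.9 for Dnajb1. It was 2.34 for Hspa1b, 1.72 for Hspb1 and 1.51 for Hspa1a, and the mean of Hspb1 differed from those of both Hspa1 genes by less than its SD of 1.04. The means of Hsph1 and Hspa8 differed by less than their SDs of 12.3 and 10.6. This order is uncertain for some genes, because reads matching several places were not counted. Of the 50-base windows along the transcript, 73.2% in Hspa8, 62.3% in Hspa1b, 60.3% in Hspa1a, 58.5% in Hsp90aa1, 51.6% in Hspb1, 44.8% in Hspd1 and 36.1% in Hspe1 also occur in another annotated gene (GENCODE M21), mostly a processed copy or, for the Hspa1 genes, the neighbour. For Hsph1 and Dnajb1 the shares were 0% and 0.407%.

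The ER chaperone Hspa5 served as the reference for direction. Hspa5 had 259.6 CPM at the lowest, 426 at the median and 548 at the highest in WT mice, and 223, 241 and 307 CPM in mice labelled LPAR2-/-. Above every mouse labelled LPAR2-/- were 5 WT mice, and WT mice 1 (281 CPM) and 7 (259.6 CPM) were inside their range. The means were 414 ± 108 and 251 ± 28.7 CPM (SD, n = 7 each; log2 fold change -0.72 ± 0.151, adjusted p = 0.0129 by edgeR). Hspa5 and the 5 heat shock genes past the threshold thus had the same direction. The other 5 had negative values as well, but those of Hsp90ab1 and Hspb1 were within 1 SE of 0.

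The ratio of each heat shock gene to Hspa5 within the same mouse was compared between the genotypes, to ask whether the fold changes differed from that of Hspa5. Positive values mean that the heat shock gene was lower by less than Hspa5. The difference in log2 ratio was positive for all 10 genes and passed the threshold in limma for 6 of them. The limma intervals and p can be too narrow, as described below. With the mean of the 19 ER chaperones in place of Hspa5, 5 of the 10 differences were negative (between -0.10 and -0.00352) and 1 gene, Hsp90ab1, passed (0.26, adjusted p = 0.0359), so that the direction depends on the reference. Those past the threshold relative to Hspa5 were Hsp90ab1 (0.65, 95% interval 0.27 to 1.04, adjusted p = 0.00124), Hspb1 (0.61, 0.080 to 1.14, adjusted p = 0.0262), Hspd1 (0.55, 0.20 to 0.90, adjusted p = 0.00289), Hsp90aa1 (0.49, 0.14 to 0.85, adjusted p = 0.00768), Hspa1a (0.48, 0.033 to 0.92, adjusted p = 0.0380) and Dnajb1 (0.39, 0.039 to 0.74, adjusted p = 0.0322). Hspe1 (0.36, -0.016 to 0.73, adjusted p = 0.0641), Hspa1b (0.32, -0.10 to 0.74, adjusted p = 0.141), Hspa8 (0.31, -0.045 to 0.67, adjusted p = 0.0908) and Hsph1 (0.30, -0.066 to 0.66, adjusted p = 0.113) were not distinguished from Hspa5 in limma, with intervals that include 0 and reach up to 0.74.

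Because Hspa5 itself enters every ratio, 93.6% of the 14896 genes tested against it were called higher, with a median of 0.68 for all genes and 0.44 for the heat shock genes. The count of 6 of 10 is therefore below the background. The limma intervals pool the spread over genes that all share Hspa5 and treat it as known. These intervals and the limma p can therefore be too narrow for 7 mice per group. For single genes, exact two-sided permutation tests over the 3432 arrangements of the mice, chosen after the data had been seen and not adjusted, gave p = 0.00699 for Hsp90ab1, 0.00758 for Dnajb1, 0.00991 for Hspd1, 0.0256 for Hsp90aa1, 0.0268 for Hspa8, 0.0443 for Hspb1, 0.0548 for Hsph1, 0.0793 for Hspe1, 0.0985 for Hspa1a and 0.289 for Hspa1b. Thus Hspa1a, which passed in limma, did not in this test, and Hspa8 did. The number of genes past the threshold in limma went from 6 to 10 without WT mouse 1 or 7, and to 3 without WT mouse 2 or LPAR2-/- mouse 4. Of the 6, Hsp90ab1, Hsp90aa1 and Hspd1 passed in all 14 fits that leave out a mouse, Hspb1 in 11 (adjusted p up to 0.0836), Dnajb1 in 7 (up to 0.0735) and Hspa1a in 5 (up to 0.116).

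**Figure D3:**
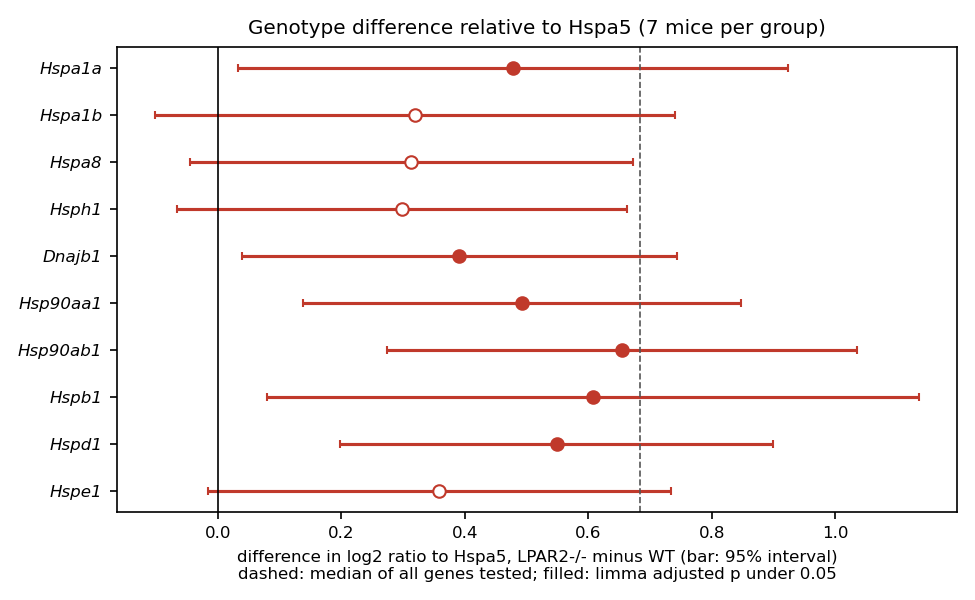
Difference of the log2 ratio to Hspa5 between mice labelled LPAR2-/- and WT mice for the 10 heat shock genes (point; bar, 95% interval of limma; 7 mice per group; filled, adjusted p under 0.05). All 10 points lie to the right of 0, between 0.30 and 0.65, and the dashed line marks the median of all genes tested at 0.68.

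The 2 WT mice with an Hspa5 level inside the range of the other genotype differed among the heat shock genes. In both, Hspe1 (18.6 CPM in WT mouse 1 and 16.7 in WT mouse 7) and Hspd1 (84.1 and 79.8 CPM) were above every mouse labelled LPAR2-/-. In both, Hspa8 (233 and 239.8 CPM) was below the highest mouse labelled LPAR2-/-, mouse 3, but above the other 6. Hsph1 was above all mice labelled LPAR2-/- in WT mouse 7 (471 CPM) but not in WT mouse 1 (413 CPM), and Dnajb1 in WT mouse 1 (47.1 CPM) but not in WT mouse 7 (40.5 CPM). These are descriptions of 2 mice without a test.

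**Figure D4:**
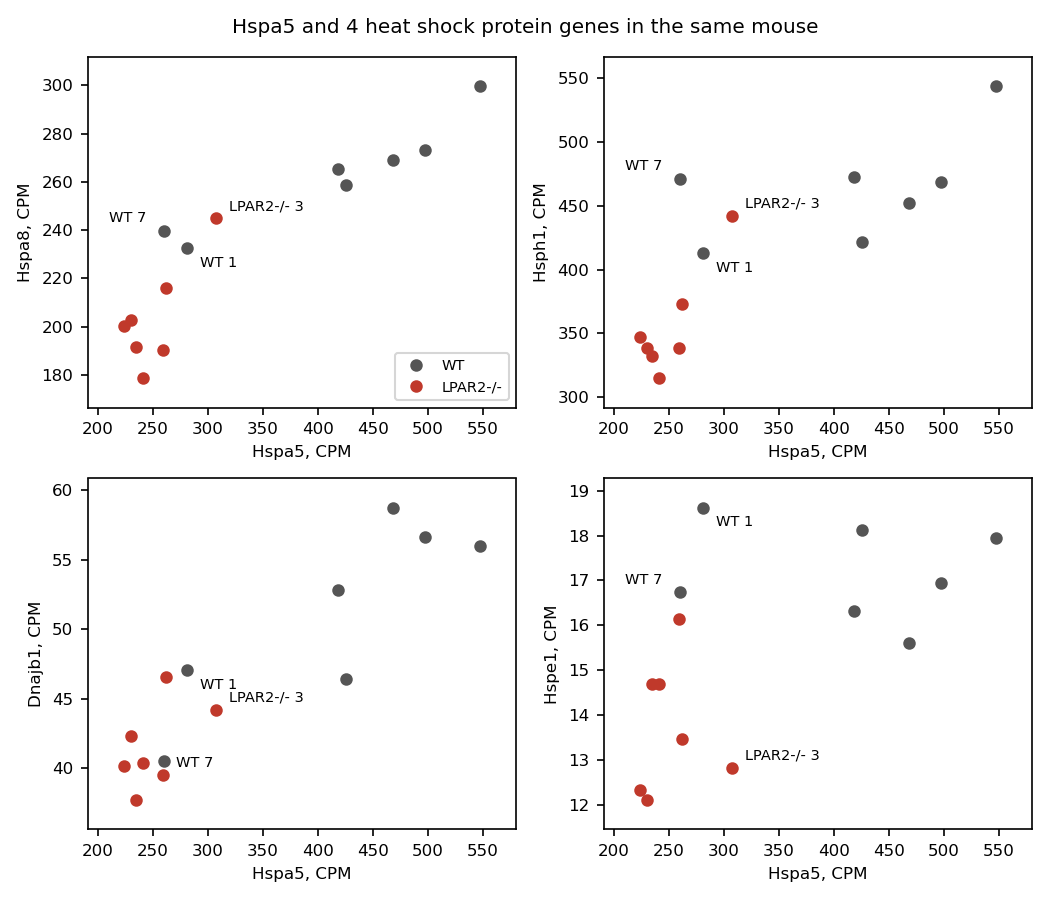
Level of Hspa5 (CPM, x axis) against Hspa8, Hsph1, Dnajb1 and Hspe1 (CPM, y axes, not starting at 0) in each of 7 WT mice (grey) and 7 mice labelled LPAR2-/- (red). WT mice 1 and 7 lie among the red points on the Hspa5 axis, near them on the Hspa8 axis and above them on the Hspe1 axis.

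The partners of the heat shock proteins were examined as lists of genes, also written with earlier results of these data known. Their counts stand beside the shares over all genes tested, which were 3.46% lower and 3.32% higher in edgeR, 11.1% and 11.3% at an unadjusted p under 0.05, 4.45% and 4.15% in DESeq2, and 1.77% for ranges that do not overlap. Of 7 other HSP70 and HSP110 genes of the cytosol, 1 fell and none rose in edgeR (2 lower and 1 higher at an unadjusted p under 0.05, 2 lower and 0 higher in DESeq2). The former was Hspa4 (APG-2, another HSP110), with 324 ± 15.4 CPM in WT mice and 288 ± 11.4 CPM in mice labelled LPAR2-/- (log2 fold change -0.17 ± 0.0380, adjusted p = 0.0141 by edgeR). Hspa2 had a positive value of 0.22 (adjusted p = 0.0918), so that the signs within this family were mixed, with 4 negative and 3 positive values and a median of -0.086. Of 10 cytosolic J-domain genes, all had negative values (median -0.089), and 3 passed the threshold (5 lower and 0 higher at an unadjusted p under 0.05, 4 lower and 0 higher in DESeq2). These were Dnajb4 (-0.23 ± 0.0504, adjusted p = 0.0142), Dnaja4 (-0.30 ± 0.0719, adjusted p = 0.0219) and Dnaja1 (-0.15 ± 0.0372, adjusted p = 0.0257). With each mouse left out, Dnaja1 passed in 10 of 14 fits (adjusted p up to 0.0619), Dnaja4 in 13 (up to 0.0514) and Dnajb4 in 14. Dnajb4 was the one of them whose ranges did not overlap, at 85.0 to 103 CPM in WT mice and 74.9 to 84.7 CPM in mice labelled LPAR2-/-. With the mouse number as a block in edgeR, Dnajb4 passed (adjusted p = 0.0445). Hspa4 (0.0512), Dnaja1 (0.0545) and Dnaja4 (0.0563) did not pass under this block.

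Among 18 cochaperones of HSP70 and HSP90, 3 fell and none rose in edgeR, with 12 negative and 6 positive values (median -0.063), where 3.46% of all genes were called lower. At an unadjusted p under 0.05, 7 were lower and 1 higher (11.1% and 11.3% of all genes), and DESeq2 called 4 lower and 0 higher (4.45% and 4.15% of all genes). Stip1 (HOP, which bridges HSP70 and HSP90) went from 187 ± 16.6 to 153 ± 7.45 CPM (log2 fold change -0.28 ± 0.0528, adjusted p = 0.00471). Chordc1 (CHP-1, an HSP90 cochaperone) went from 73.5 ± 10.1 to 57.7 ± 3.27 CPM (-0.35 ± 0.0745, adjusted p = 0.0123). Ahsa1 (AHA1, the activator of the HSP90 ATPase) went from 117 ± 7.04 to 103 ± 4.73 CPM (-0.19 ± 0.0423, adjusted p = 0.0165 by edgeR). The other cochaperones, among them the HSP70 nucleotide exchange factor Bag1 and the HSP90 kinase adaptor Cdc37, did not pass the threshold.

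Of 8 small heat shock protein genes listed beside Hspb1, 4 were abundant enough to be tested, and 1 fell and 1 rose, where 3.46% of all genes fell and 3.32% rose. At an unadjusted p under 0.05, 1 was lower and 2 higher. Hspb8, which acts with BAG3 in selective autophagy, had 16.7 to 23.6 CPM in WT mice and 9.12 to 15.7 CPM in mice labelled LPAR2-/-, without overlap (log2 fold change -0.67 ± 0.107, adjusted p = 0.00191 by edgeR). Hspb6 (HSP20) was higher in mice labelled LPAR2-/-, at 2.36 ± 0.469 CPM in WT mice and 3.48 ± 0.518 CPM in the latter (0.56 ± 0.141, adjusted p = 0.0257 by edgeR). It passed in 10 of the 14 fits that leave out a mouse (adjusted p up to 0.0606), but not with the mouse number as a block (adjusted p = 0.0826 by edgeR). The remaining 2, Cryab and Hspb11, did not pass.

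In 3 further lists no gene passed the threshold in edgeR. Of 12 mitochondrial chaperones and proteases, 7 had negative and 5 positive values (median -0.032), and the smallest p was that of Dnaja3, a mitochondrial J-domain protein (-0.081, adjusted p = 0.201). Hspa9 (mortalin), the mitochondrial HSP70 that works upstream of HSP60, had 247 ± 7.53 and 249 ± 10.0 CPM (0.011 ± 0.0341, adjusted p = 0.889). At an unadjusted p under 0.05, 1 gene of this list was lower and 1 higher, and DESeq2 called 0. Of 8 subunits of the cytosolic chaperonin CCT, 7 had negative values (median -0.054), with Tcp1 at -0.097 (adjusted p = 0.0663), although its ranges of 206 to 215 CPM in WT mice and 186 to 205 CPM in mice labelled LPAR2-/- did not overlap. Of these subunits 3 were lower at an unadjusted p under 0.05, and DESeq2 called 1. Of 4 genes for heat shock factors and their binding protein, 3 had negative values (median -0.063), with Hsf1 at 62.3 ± 4.17 and 58.2 ± 4.52 CPM (-0.10 ± 0.0539, adjusted p = 0.281), and 0 passed at an unadjusted p under 0.05 or in DESeq2.

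For comparison, 10 of 19 ER chaperones and folding enzymes fell and none rose in edgeR, with 16 negative values and a median of -0.32. At an unadjusted p under 0.05, 13 were lower and 2 higher, and DESeq2 called 12 lower and 0 higher, against the shares over all genes given above for these criteria. Beside Hspa5, those with the smallest p were Canx (-0.22, adjusted p = 0.0132), Pdia6 (-0.58, adjusted p = 0.0146), Dnajb11 (-0.31, adjusted p = 0.0149) and Calr (-0.44, adjusted p = 0.0183). Calr, like Dnajb1, lies in the stretch 10 to 20 Mb from Lpar2 on chromosome 8, in which 23.1% of genes were called. The plot of fold changes sets these genes beside the heat shock genes and their partners.

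**Figure D5:**
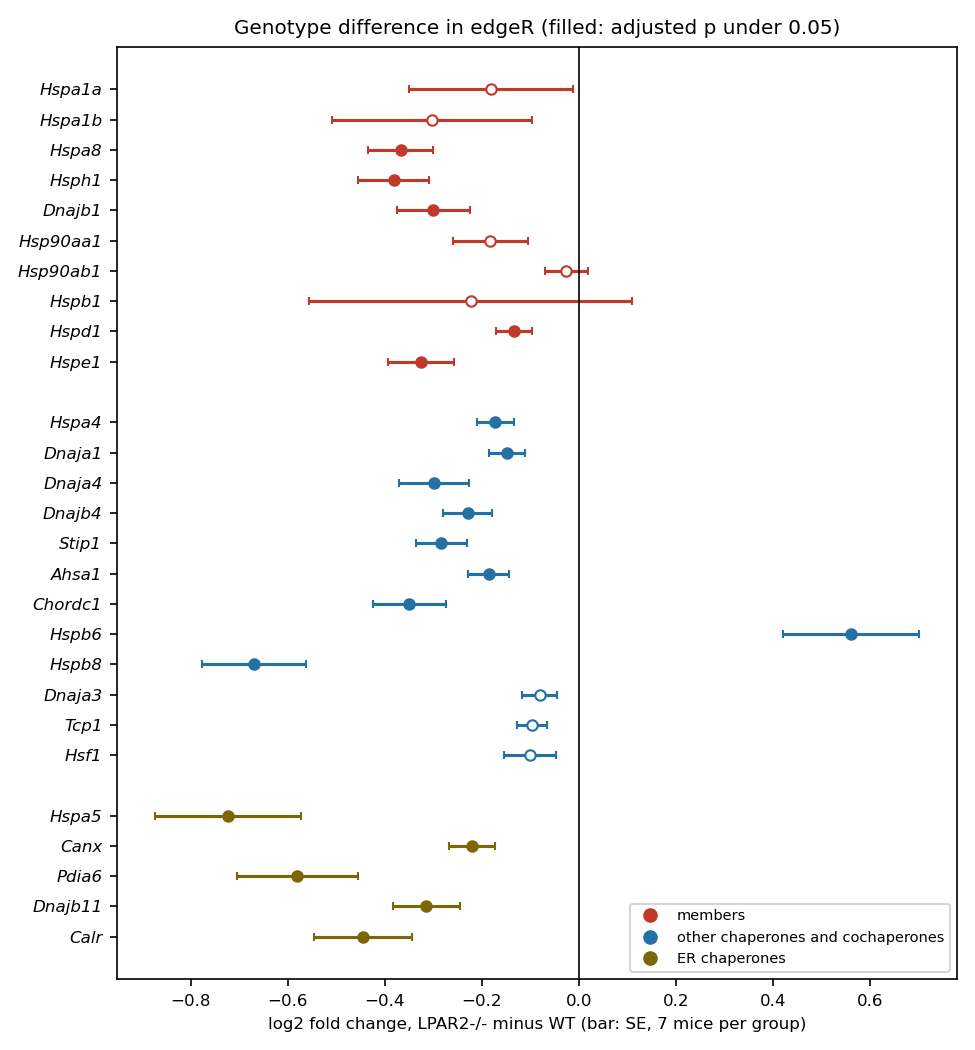
log2 fold change (LPAR2-/- minus WT, x axis; bar, SE; 7 mice per group) of the 10 heat shock genes (red), of the partners with the smallest p in each list (blue; those past the threshold, or 1 gene where none was) and of the 5 ER chaperones with the smallest p (ochre), filled where the adjusted p of edgeR is under 0.05. Except for Hspb6 at 0.56, the points shown lie left of 0, partners with positive values below the threshold such as Hspa2 and Hspb11 are not drawn, and Hspa5 at -0.72 is farther from 0 than any of the 10 heat shock genes.

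Tissue composition was checked with marker genes. Neuronal markers summed to 8606 to 9846 CPM in WT mice and 8476 to 10396 CPM in mice labelled LPAR2-/-, and 0 of 8 were called by edgeR or DESeq2 or at an unadjusted p under 0.05. This sum is mostly Camk2a (means 7030 and 7010 CPM) and can hide differences in dissection between mice. Neurod6 ran from 77.5 to 184 CPM in WT mice and from 47.5 to 171 CPM in mice labelled LPAR2-/-. The ranges of Bok were 29.4 to 60.7 and 21.7 to 71.5 CPM. Of the markers of astrocytes (5 genes), oligodendrocytes (5), microglia (5), endothelium and pericytes (7) and thalamus (5), 0 were called by edgeR or DESeq2, and at an unadjusted p under 0.05 1 microglial and 1 vascular gene were higher. The oligodendrocyte sums were 1095 to 1889 CPM (median 1339) in WT mice and 880 to 3635 CPM (median 1269) in mice labelled LPAR2-/-, with the highest in mouse 3. Markers of the meninges were higher by sign in 7 of 8 cases with 1 call (Lum, adjusted p = 0.0132) and 6 at an unadjusted p under 0.05, with sums of 57.1 to 217 CPM (median 92.3) in WT mice and 68.9 to 314 CPM (median 180) in mice labelled LPAR2-/-. Choroid plexus markers summed to 28.3 to 33.0 CPM and 25.5 to 278 CPM (the highest in mouse 2), and 3 of 6 could be tested in edgeR with 0 calls (2 higher at an unadjusted p under 0.05, and 1 called higher by DESeq2). Of 5 blood markers, 4 (the globin genes) were listed at 0 in every library. Reads matching several genes or places were not counted, so that these zeros cannot show an absence of blood. Alas2 had 1.05 to 2.10 CPM in WT mice and 1.02 to 3.14 CPM in mice labelled LPAR2-/- (adjusted p = 0.552 by edgeR). The part of these differences in the heat shock results was not tested, and in bulk tissue fewer expressing cells and less RNA per cell cannot be told apart.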

How the data were processed

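Total RNA of the hippocampus was depleted of ribosomal RNA (TruSeq with Ribo-Zero) and sequenced by the authors on a HiSeq system. The deposited counts are raw reads per gene: after trimming (cutadapt 1.18) and alignment by STAR to mm10, the authors assigned reads to the exons of each gene on the reverse strand with featureCounts 1.6.3, without reads that matched several genes or places. Each library is a separate mouse, and groups were taken from the labels. A second deposited table of DESeq2-normalized values (DESeq2 1.22.2) derives from the same counts and was not used here.

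Counts were analysed in R 4.3.3. Of 24421 genes, 14897 passed filterByExpr. They were TMM-scaled, and the genotypes (7 mice each, no covariates) were compared by edgeR 4.0.16 in its robust quasi-likelihood F test, with Benjamini-Hochberg adjustment over all genes tested and a threshold of 0.05. SEs were derived from the fold change and its F value. Ratios to Hspa5 were differences of log2 CPM (prior count 2) tested by limma 3.58.1 across all genes. The scripts were tested on simulated data. The genes, lists and tests were chosen with earlier results of these data known. The genes to be named were the 10 heat shock genes, Hspa5, Lpar2 and, per list, those past the threshold (up to 5 with the smallest p) or else the 1 with the smallest p. A few others (Hspa2, Hspa9, Bag1, Cdc37, Cryab and Hspb11) were named after their values had been seen. Alternatives were DESeq2 1.42.0, other scalings and filters, the mouse number as a block, each mouse left out, Hspa1a and Hspa1b summed, a prior count of 0.5 and another reference.

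Equal mouse numbers are not stated to pair animals of different genotype. Within a genotype no library duplicated another, since all 42 pairs differed beyond sampling noise (chi-square per degree of freedom at least 3.29). Promoter sequences came from RefSeq (GRCm38.p6).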

Additional observations from a re-analysis of the deposited data

How the results depend on the processing

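The 10 heat shock genes kept a negative value in each of the 7 fits with another scaling, filter, tool, block or summed gene pair, and the median of all genes lay between 0.000206 and 0.0232 (log2) in these fits. The number called lower, 5, was 3 in a fit with a replicate block for the mouse number, where Hspd1 (adjusted p = 0.120) and Hspe1 (adjusted p = 0.0511) no longer passed. The block gave 272 genes lower and 314 higher over all genes, in place of 515 and 494. The numbers are not stated to pair the mice. Correlations of same-numbered mice ran from -0.33 to 0.31 with 3 of 7 above 0.1, and 2 of 7 WT mice correlated best with their own number. These values cannot decide whether mice of equal number were handled together. Hspd1 also missed the threshold with the upper quartile (adjusted p = 0.0628) and without a filter (adjusted p = 0.0593). With each mouse left out, the number of heat shock genes called lower ranged from 3 to 6, with 3 without LPAR2-/- mouse 4 or 5 or WT mouse 2, 4 or 5, and 6 without LPAR2-/- mouse 3. Calls over all genes ranged from 292 to 725 lower and from 275 to 660 higher, lowest without WT mouse 2 and highest without WT mouse 1. The Hspb1 value ranged from -0.36 to 0.061. Relative to Hspa5, between 3 and 10 of the 10 genes were called. With the mean of the ER chaperone list as reference in place of Hspa5, 1 gene was called, and the sign turned for Hspa1b (-0.075), Hspa8 (-0.082), Dnajb1 (-0.00352), Hsph1 (-0.10) and Hspe1 (-0.036). The cause of these changes was not tested. With DESeq2 Tcp1 passed as well (adjusted p = 0.00665), and under the block Hspa4, Hspb6, Dnaja1 and Dnaja4 did not (adjusted p from 0.0512 to 0.0826). For Hspb1 and the Hspa1 genes the spread between mice exceeded that of counting in both genotypes.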
